A study of Mus musculus with 17 samples.

Results

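The genes described here are 10 members of the bone morphogenetic protein (BMP) pathway, chosen by symbol: the ligand genes Bmp4 and Bmp7, the receptor gene Bmpr1a, the inhibitor genes Bambi, Smad6 and Smad7, and the target genes Id1, Id2, Id3 and Id4. All 10 were found among the 18836 genes listed in at least 1 of 17 RNA-seq libraries. The cells were mouse neural retinal progenitor cells (mNRPCs), a culture grown from the neural retina of adult C57BL/6 mice. One library was made at day 0 (the control, labelled as untreated), and 1 library of each of 4 media on days 1, 3, 5 and 7: basic medium (BM, DMEM/F12 with N2, B27 and beta-mercaptoethanol, labelled as untreated), BM with basic fibroblast growth factor (bFGF; B), BM with CHIR99021, an inhibitor of the kinase GSK-3 (C), and BM with both (BC). N2 and B27 were thus present in the 4 media, and before these treatments the cells had been expanded with bFGF and CHIR99021. No treatment and day had a second library. The fits therefore used the departures of the 16 cultured libraries from the modelled effects as their spread, and this is not the spread between separate cultures.

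A BMP ligand binds a pair of type I and type II receptors, which phosphorylate the receptor-regulated Smads; these enter the nucleus with Smad4 and switch on target genes. Id genes are the classical direct targets, and Id proteins bind E proteins and keep them from pairing with tissue-specific bHLH factors, which holds back differentiation. Smad6, Smad7 and Bambi are themselves induced by the pathway and restrain it, and in the eye BMP4 and BMP7 act in the patterning of the developing retina. The question that the design puts to these genes is how their level depended on bFGF, on CHIR99021 and on time in culture.

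Total expected counts were even, between 17571973 and 19428744 per library, with 14820 to 15882 genes listed. Among retinal progenitor markers, 4 of 8 had a mean of at least 1 FPKM (fragments per kilobase of transcript, scaled to the library's mapped reads), while markers such as Rax and Six6 stayed under 0.5 FPKM in every library, so that the labelled identity was borne out by part of the list. The summed progenitor list ran from 295 to 353 FPKM on days 3 to 7 without bFGF and from 75.8 to 202 FPKM with it. Over the same days the Müller glia list (3 of 6 markers with a mean of at least 1 FPKM; Rlbp1 and Slc1a3 under 0.5 FPKM) ran from 172 to 331 FPKM without and from 138 to 159 FPKM with bFGF, and the vascular list, in which 1 of 6 reached that mean and Cdh5, Pecam1 and Rgs5 were under 0.5 FPKM, from 80.0 to 115 FPKM without and from 5.40 to 32.1 FPKM with bFGF. The astrocyte, photoreceptor, RPE and microglia lists summed to 2.56 FPKM at most on days 3 to 7, and the inner neuron list (3 of 6 with a mean of at least 1 FPKM) to 5.02 to 14.9 FPKM. The sums of the progenitor, Müller glia and vascular lists moved with the bFGF comparison, and their part in the results below was not tested. Pdgfrb gave nearly all of the vascular sum, at 79.4 to 115 FPKM without and 5.25 to 31.9 FPKM with bFGF. Among Müller glia markers the medians of Apoe (94.3 and 39.5 FPKM) and Dkk3 (144 and 85.5 FPKM) were lower with bFGF. That of Glul was higher (16.7 FPKM without and 21.7 FPKM with bFGF). In bulk RNA a lower level cannot be told apart as fewer expressing cells or less RNA per cell. The BC library of day 3 stood between the groups: 240 of 11272 genes differed by at least 2-fold from B that day, against 19 to 66 genes on the other days.

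**Figure D1:**
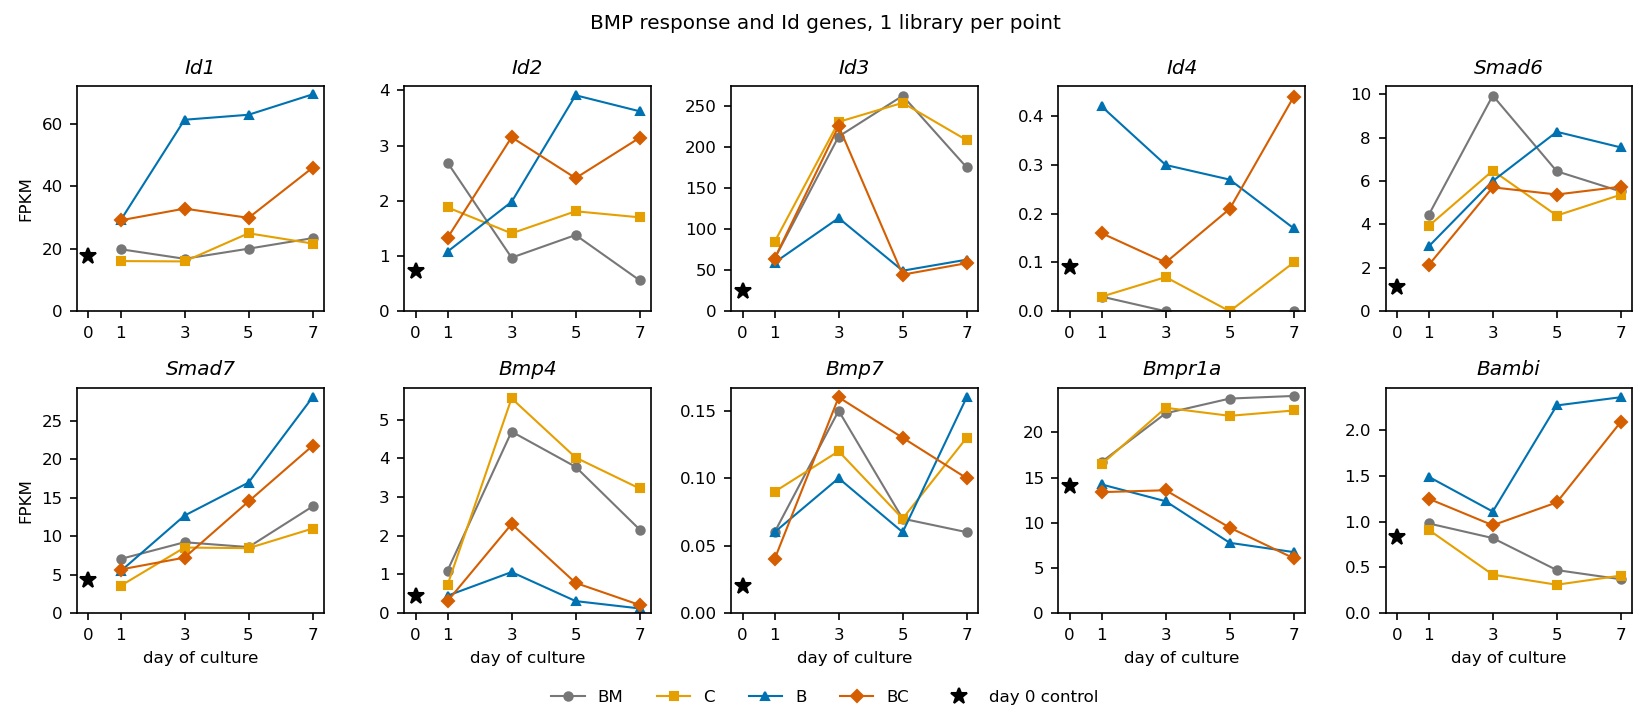
FPKM (linear axis from 0) of the 10 genes against the day of culture, with 1 library per point, lines joining libraries of the same medium and a star for the day 0 control. Id1, Smad7 and Bambi were highest with bFGF at day 7 (B 69.4, 28.1 and 2.36 FPKM), Bmpr1a and Bmp4 were lowest there, and Id3 parted from day 5.

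The levels of the 10 genes spanned more than 3 orders of magnitude on the FPKM scale, which is per transcript length. Without bFGF the mean of the 8 libraries was 186 FPKM for Id3, followed by Bmpr1a (21.3) and Id1 (19.8), whose ranges overlapped nearly entirely. Smad7 (8.78 FPKM), Smad6 (5.82), Bmp4 (3.16) and Id2 (1.55) came next, then Bambi (0.586), Bmp7 (0.0938) and Id4 (0.0288). The ranges of neighbours in this order overlapped, except that Id3 stood clear of Bmpr1a, Id1 of Smad7 and Bambi of Bmp7. With bFGF the order was Id3 (84.7 FPKM), Id1 (45.1), Smad7 (14.1), Bmpr1a (10.5), Smad6 (5.47), Id2 (2.58), Bambi (1.59), Bmp4 (0.693), Id4 (0.259) and Bmp7 (0.101). There Id1 stood clear of Smad7 and the other neighbours overlapped.

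With bFGF, 7 of the 8 genes that could be tested differed over days 1 to 7. Id1, Id2, Smad7 and Bambi were higher, where 34.6% of the 11272 tested genes were higher, and Id3, Bmp4 and Bmpr1a were lower, where 33.9% were lower. Such calls were therefore common in these libraries, and 4 of 8 and 3 of 8 are to be read against those shares. Id4 and Bmp7 were below the minimum mean of 1 FPKM. Bmp4 passed this minimum through the libraries without bFGF and Bambi through those with bFGF, so both had to differ to be tested at these levels. Fold changes were scaled by TMM, which sets the bulk of genes equal between libraries; without it the median of all genes moved by -0.29 on the log2 scale, and 28.2% of the called genes were higher with bFGF against 50.5% with it.

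Of the ligand genes Bmp4 and Bmp7, Bmp4 was the one with a measurable level. It encodes a secreted protein that acts through BMPR1A and BMPR2, and its gene lies at chr14:46383525-46390669 (mm10). On day 0 Bmp4 was at 0.43 FPKM. In BM it was at 1.10, 4.69, 3.78 and 2.16 FPKM on days 1, 3, 5 and 7, and in C at 0.73, 5.55, 4.02 and 3.22 FPKM. With bFGF the B libraries gave 0.45, 1.06, 0.31 and 0.12 FPKM and the BC libraries 0.31, 2.30, 0.78 and 0.21 FPKM. Both libraries with bFGF were below both without it on every day, and the level peaked on day 3 in each medium. The bFGF effect was -2.06 on the log2 scale (SE 0.31, adjusted p = 0.000255), 4.17-fold lower. By day it was -1.16 (SE 0.47, adjusted p = 0.136) on day 1 and -3.33 (SE 0.49, adjusted p = 4.58e-05) on day 7, where the B library held the fewest expected counts of any, 3.54. Without bFGF Bmp4 rose by 1.48 from day 1 to day 7 (SE 0.36, adjusted p = 0.00332); leaving out the C library of day 1 gave 0.94 (adjusted p = 0.0751).

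Bmp7, the second ligand of the set (chr2:172868012-172940321), was at 0.02 FPKM on day 0 and at 0.04 to 0.16 FPKM in the 16 cultured libraries, with expected counts of 3.07 to 10.7. At that depth no difference between media was detectable. A fit without the minimum level gave 0.34 for bFGF (SE 0.32, adjusted p = 0.430).

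Bmpr1a encodes the type I receptor that BMP4 uses (chr14:34411061-34503336) and was the gene with the tightest values. It was at 14.1 FPKM on day 0. BM libraries gave 16.7, 22.1, 23.8 and 24.0 FPKM on days 1, 3, 5 and 7, and C libraries 16.5, 22.7, 21.8 and 22.4 FPKM. In B it was at 14.2, 12.4, 7.78 and 6.75 FPKM and in BC at 13.4, 13.6, 9.46 and 6.07 FPKM. All 8 libraries with bFGF were below all 8 without it, and the gap widened with each day. The bFGF effect was -0.78 over the days (SE 0.13, adjusted p = 0.000396), and -0.18 on day 1 (SE 0.10, adjusted p = 0.251), -0.69 on day 3, -0.94 on day 5 and -1.30 on day 7 (SE 0.10, adjusted p = 1.64e-07). Bmpr1a moved both ways in time: from day 1 to day 7 it rose by 0.46 without bFGF (SE 0.10, adjusted p = 0.00128) and fell by 0.66 with it (SE 0.10, adjusted p = 6.3e-05).

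The inhibitors did not move as a group. Bambi encodes a membrane protein that resembles a type I receptor without its kinase domain and blocks signalling. It was at 0.83 FPKM on day 0, and at 0.98, 0.82, 0.47 and 0.37 FPKM in BM and 0.91, 0.42, 0.31 and 0.41 FPKM in C on days 1, 3, 5 and 7. B gave 1.49, 1.11, 2.27 and 2.36 FPKM and BC 1.25, 0.96, 1.21 and 2.09 FPKM. On each day both libraries with bFGF were above both without it, at expected counts of 29 to 219. The effect of bFGF was 1.76 (SE 0.34, adjusted p = 0.000884), or 3.38-fold, and it reached 3.05 on day 7 (SE 0.27, adjusted p = 5.15e-07). From day 1 to day 7 Bambi fell by 1.29 without bFGF (SE 0.28, adjusted p = 0.00161) and rose by 1.15 with it (SE 0.23, adjusted p = 0.00069).

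Smad7 encodes an inhibitory Smad that docks on activated type I receptors of both the BMP and TGF-beta branches. It was at 4.36 FPKM on day 0. On days 1, 3, 5 and 7 BM gave 7.04, 9.22, 8.59 and 13.9 FPKM, and C gave 3.54, 8.53, 8.45 and 11 FPKM. B gave 5.44, 12.7, 16.99 and 28.1 FPKM, and BC gave 5.67, 7.22, 14.5 and 21.8 FPKM. The groups overlapped on days 1 and 3 and were apart on days 5 and 7. Smad7 was higher with bFGF by 0.80 over the days (SE 0.20, adjusted p = 0.00336), with 0.20 on day 1 and 0.21 on day 3, neither past the threshold, and 1.26 on day 5 and 1.51 on day 7 (SE 0.19, adjusted p = 9.48e-06). It was the only member called as higher on day 7 than on day 1 in both arms, by 1.29 without bFGF (SE 0.19, adjusted p = 9.82e-05) and by 2.59 with it (SE 0.20, adjusted p = 1.91e-07). In the same fit Id1, Id3 and Smad6 were also above 0 in both arms, each past the threshold in a single arm. For Id3 with bFGF the alternatives ran from -0.03 to 0.55.

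Smad6 encodes the inhibitory Smad that acts mainly on the BMP branch (chr9:63953076-64022085). It was at 1.14 FPKM on day 0, below each of the 16 cultured libraries. BM gave 4.44, 9.94, 6.45 and 5.52 FPKM on days 1, 3, 5 and 7, and C gave 3.93, 6.48, 4.41 and 5.37 FPKM. B gave 2.99, 6.00, 8.27 and 7.55 FPKM, and BC gave 2.13, 5.71, 5.38 and 5.74 FPKM. The libraries with bFGF were below those without it on days 1 and 3, and on days 5 and 7 each was above its partner without bFGF (B above BM, BC above C). The bFGF effect over the days was 0.16 (SE 0.20, adjusted p = 0.499), and -0.13 without TMM. It was -0.60 on day 1 (SE 0.17, adjusted p = 0.0410), -0.38 on day 3 (SE 0.15, adjusted p = 0.0577), 0.79 on day 5 (SE 0.16, adjusted p = 0.000553) and 0.81 on day 7 (SE 0.16, adjusted p = 0.000424). The later values were smaller in FPKM, which TMM does not scale. The ratio of B to BM was 1.28 on day 5 and 1.37 on day 7, and that of BC to C 1.22 and 1.07. Single-day fits were not run without TMM. Smad6 was the 1 member called on day 1, when 10.7% of all genes were called. With bFGF it rose by 1.79 from day 1 to day 7 (SE 0.17, adjusted p = 1.03e-06), while 0.37 without bFGF missed the threshold (SE 0.16, adjusted p = 0.0593). The latter depended on single libraries, from 0.15 without C day 7 and 0.22 without BM day 1 to 0.51 without BM day 7 (adjusted p = 0.0392), and it also passed without BC day 3 (0.37, adjusted p = 0.0459) and without TMM (0.39, adjusted p = 0.0499).

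The Id genes, the readout of the pathway's activity in many cell types, divided. Id1 and Id2 were higher and Id3 was lower with bFGF. Id1 (chr2:152736251-152737410) was at 17.8 FPKM on day 0 and stayed near that level without bFGF, at 19.9, 16.8, 20.03 and 23.4 FPKM in BM and 16.1, 15.95, 24.96 and 21.7 FPKM in C on days 1, 3, 5 and 7. B gave 29.1, 61.3, 62.9 and 69.4 FPKM. BC gave 29.1, 32.9, 29.9 and 45.9 FPKM. Every library with bFGF was above every library without it, already on day 1, and from day 3 B was above BC. The bFGF effect was 1.41 (SE 0.18, adjusted p = 9.85e-05), or 2.67-fold. By day it was 0.79 on day 1 (SE 0.28, adjusted p = 0.0921), 1.58 on day 3, 1.42 on day 5 and 1.87 on day 7 (SE 0.28, adjusted p = 4.5e-05). Over the days with bFGF Id1 rose by 1.39 from day 1 to day 7 (SE 0.27, adjusted p = 0.00047), and without it the change was 0.31 (SE 0.28, adjusted p = 0.349).

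Id3 (chr4:136143822-136145392) was the most abundant member, and its time course differed from that of Id1. It was at 24.1 FPKM on day 0 and above that in every cultured library. In BM it was at 64.1, 213, 262 and 175 FPKM on days 1, 3, 5 and 7, and in C at 84.5, 231, 254 and 208 FPKM. B gave 59.3, 113, 49.4 and 62.8 FPKM and BC gave 64.2, 225, 44.6 and 58.6 FPKM. On day 1 the 4 media lay within 59.3 to 84.5 FPKM. On day 3 BC was with BM and C and only B was lower, and on days 5 and 7 both libraries with bFGF were far below both without it. The effect of bFGF was -0.90 over the days (SE 0.23, adjusted p = 0.00468). In the model with a bFGF by CHIR99021 term it was -0.96 without CHIR99021 (adjusted p = 0.0358) and -0.83 with it, past the threshold no longer (SE 0.34, adjusted p = 0.0648). It was -0.18 on day 1 (SE 0.21, adjusted p = 0.630), -0.32 on day 3 (SE 0.20, adjusted p = 0.197), -2.01 on day 5 (SE 0.21, adjusted p = 2.8e-06) and -1.11 on day 7 (SE 0.21, adjusted p = 0.000313). The day 3 value turned on the BC library of that day, without which it was -0.81 (SE 0.15, adjusted p = 0.000982). From day 1 to day 7 Id3 rose by 1.35 without bFGF (SE 0.21, adjusted p = 0.00011). The change with bFGF was 0.42 (SE 0.21, adjusted p = 0.0841). It passed the threshold in 3 of 24 alternatives, and these 24 ran from -0.03 to 0.55. Leaving out the B or the BC library of day 3 gave 0.40 and 0.42. In FPKM, which TMM does not scale, B went from 59.3 on day 1 to 62.8 on day 7 and BC from 64.2 to 58.6.

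Id2 (chr12:25093799-25096092) was low, with expected counts of 13 to 88, and at 0.73 FPKM on day 0. BM gave 2.69, 0.97, 1.38 and 0.56 FPKM on days 1, 3, 5 and 7, and C gave 1.88, 1.41, 1.81 and 1.70 FPKM. B gave 1.08, 1.98, 3.91 and 3.62 FPKM, and BC gave 1.33, 3.15, 2.41 and 3.14 FPKM. On day 1 both libraries with bFGF were below both without it, and from day 3 they were above. The bFGF effect was 1.01 over the days (SE 0.39, adjusted p = 0.0345), a call that rested on several single libraries: leaving out 1 library gave 0.77 to 1.24 and kept the call in 6 of 16 fits, with adjusted p up to 0.0790. The call was lost without any 1 of the BM, C or BC libraries of day 3, the BM, C or B libraries of day 5, or any library of day 7. By day the effect was -0.85 on day 1 (SE 0.43, adjusted p = 0.234), 1.20 on day 3, 1.45 on day 5 and 2.14 on day 7 (SE 0.42, adjusted p = 0.000531). With bFGF Id2 rose by 1.93 from day 1 to day 7 (SE 0.42, adjusted p = 0.00111); the change without bFGF was -1.06 (SE 0.44, adjusted p = 0.0518). Leaving out 1 library moved the latter from -0.49 without BM day 7 and -0.69 without BM day 1 to -1.47 without C day 1 and -2.07 without C day 7, and it passed the threshold in 11 of 23 alternatives.

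Id4 (chr13:48261116-48266028) was near 0, with 0 to 13 expected counts in the cultured libraries and 0.09 FPKM on day 0. Without bFGF it was at 0 FPKM in BM on days 3, 5 and 7 and in C on day 5, and at 0.03 to 0.10 FPKM in the other 4 libraries. B gave 0.42, 0.30, 0.27 and 0.17 FPKM on days 1, 3, 5 and 7 and BC gave 0.16, 0.10, 0.21 and 0.44 FPKM. Each library with bFGF was above its partner of the same day without it. In a fit with no minimum level the bFGF effect was 3.30 (SE 0.62, adjusted p = 0.000768), a fitted value against libraries at 0 that depends on the prior count.

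RefSeq promoter windows, from 250 bases before to 50 after a start position, were available for 6 of the 10 genes (GRCm38.p6, which is mm10). For Smad6 and Bmpr1a, both on the minus strand, that position lies inside the span given above for the gene and not at its outer end. Id2 and Id3 are shown because they differed in opposite directions with bFGF, and Smad6 because its window alone among the 6 holds the Smad palindrome GTCTAGAC, which 0.213% of all 32851 RefSeq windows hold. Both strands were searched, which for the palindromic motifs used here is 1 search. The GC-rich box GGCGCC, was the other motif searched; it resembles sites that receptor-regulated Smads bind in BMP targets. Matches are in capitals, and the sequences run 5′ to 3′. Of the 6 windows, those of Id2, Id4 and Bmpr1a hold it once each and those of Id3, Smad6 and Bmp4 do not; 11.9% of all windows hold it. In Id2 (chr12:25096043-25096342, minus strand, GRCm38.p6) the box begins at position -231, and the Id3 window (chr4:136143572-136143871, plus strand) holds neither motif. In Smad6 (chr9:64022010-64022309, minus strand) the palindrome begins at position -4 and runs across the window's start position. It thus lies inside the Smad6 span given above.
Id2: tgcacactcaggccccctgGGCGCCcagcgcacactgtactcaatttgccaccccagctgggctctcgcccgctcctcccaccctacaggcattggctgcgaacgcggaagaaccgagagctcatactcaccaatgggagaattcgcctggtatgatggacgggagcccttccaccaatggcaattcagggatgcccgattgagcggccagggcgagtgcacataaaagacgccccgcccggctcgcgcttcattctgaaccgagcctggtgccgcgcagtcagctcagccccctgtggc
Id3: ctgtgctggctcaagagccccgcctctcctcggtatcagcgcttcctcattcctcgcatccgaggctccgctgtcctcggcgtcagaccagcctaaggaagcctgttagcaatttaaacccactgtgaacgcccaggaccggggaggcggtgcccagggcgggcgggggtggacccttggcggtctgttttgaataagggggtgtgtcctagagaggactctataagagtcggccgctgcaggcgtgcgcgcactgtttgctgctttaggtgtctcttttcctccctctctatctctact
Smad6: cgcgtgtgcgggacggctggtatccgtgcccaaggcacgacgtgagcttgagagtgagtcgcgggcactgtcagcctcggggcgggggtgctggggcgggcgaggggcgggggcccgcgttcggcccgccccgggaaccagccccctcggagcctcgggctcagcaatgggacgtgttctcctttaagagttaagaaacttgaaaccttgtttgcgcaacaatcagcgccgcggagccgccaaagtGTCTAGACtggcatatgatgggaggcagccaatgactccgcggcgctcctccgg
A match of letters is a description of the window and says nothing of binding. The 3 genes with the box included 1 that was higher with bFGF over days 1 to 7 (Id2), 1 that was lower (Bmpr1a) and 1 that was not tested (Id4).

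**Figure D2:**
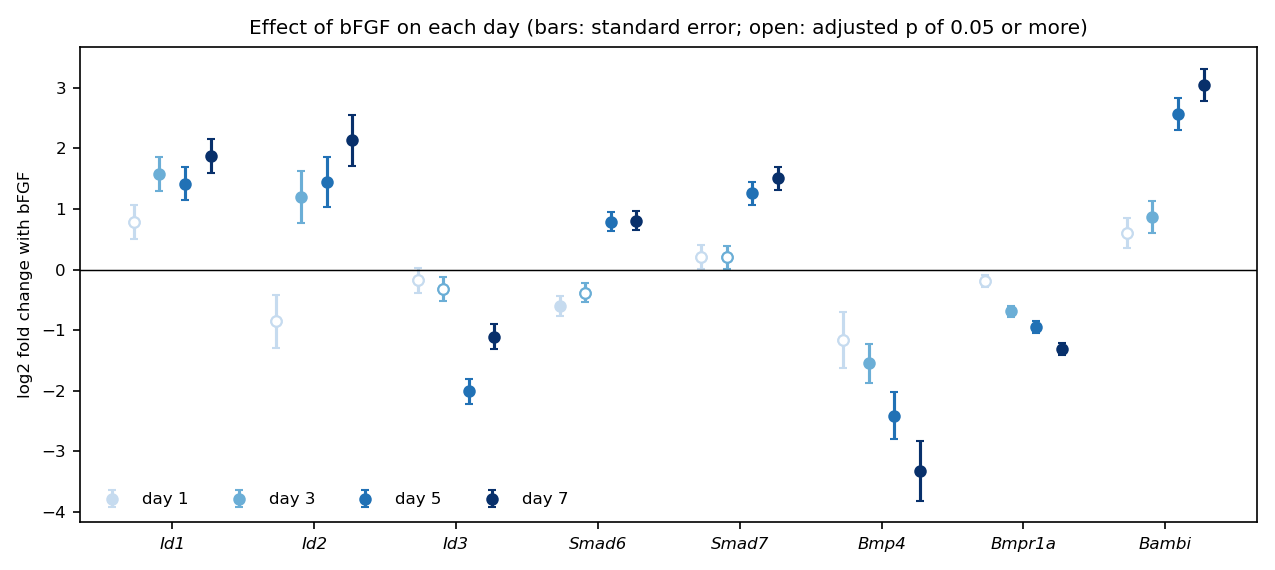
Log2 fold change with bFGF (B and BC against BM and C) on days 1, 3, 5 and 7 for the 8 tested genes, from the model with a bFGF by day term; bars are standard errors and open points have an adjusted p of 0.05 or more. On day 1 the values run from -1.16 (Bmp4) to 0.79 (Id1) with 7 of 8 points open, and on day 7 from -3.33 (Bmp4) to 3.05 (Bambi).

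The number of members called rose from day 1 to day 5, as the share of all genes did. On day 1 it was called for 1 of 8 members, on day 3 for 5 of 8 (50.4% of all genes), on day 5 for 8 of 8 (75.8%) and on day 7 for 8 of 8 (78.4%). The sizes did not all grow from day to day: Id3 was at -2.01 on day 5 and -1.11 on day 7, and Id1 at 1.58 on day 3 and 1.42 on day 5. Without the BC library of day 3, 5 of 8 were called on that day as well, with Id3 and Smad6 in place of Id2 and Bambi. The test of whether the effect differed between days passed for 7 of 8, where 76.3% of all genes passed. Adjusted p-values were 0.000121 for Bmpr1a, 0.000144 for Smad6, 0.000161 for Bambi, 0.000420 for Id3, 0.000984 for Smad7, 0.00421 for Id2 and 0.0457 for Bmp4, and 0.110 for Id1. The Bmp4 call was lost in 12 of 16 fits that left out 1 library (adjusted p up to 0.135), and was kept without BM day 1, BC day 1, B day 3 or BC day 5. Id1 passed in 2 of the 16, without the B or the BC library of day 5. For each of the 8 genes the effect on day 7 differed from that on day 1, as it did for 65.4% of all genes, from -2.16 (Bmp4, SE 0.74, adjusted p = 0.0211) to 2.99 (Id2, SE 0.61, adjusted p = 0.00095), with 1.08 for Id1 (SE 0.39, adjusted p = 0.0278).

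Members differed between day 1 and day 7 in both arms, at shares near those of all genes. From day 1 to day 7, 5 of 8 passed the test without bFGF (63.8% of all genes) and 6 of 8 with bFGF (75.3%). Without bFGF, Bmp4, Bmpr1a, Id3 and Smad7 rose and Bambi fell. With bFGF, Id1, Id2, Smad6, Smad7 and Bambi rose and Bmpr1a fell. Without TMM the median of all genes moved by -0.48 in the comparison with bFGF, and the rises given above are relative to the bulk of genes.

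**Figure D3:**
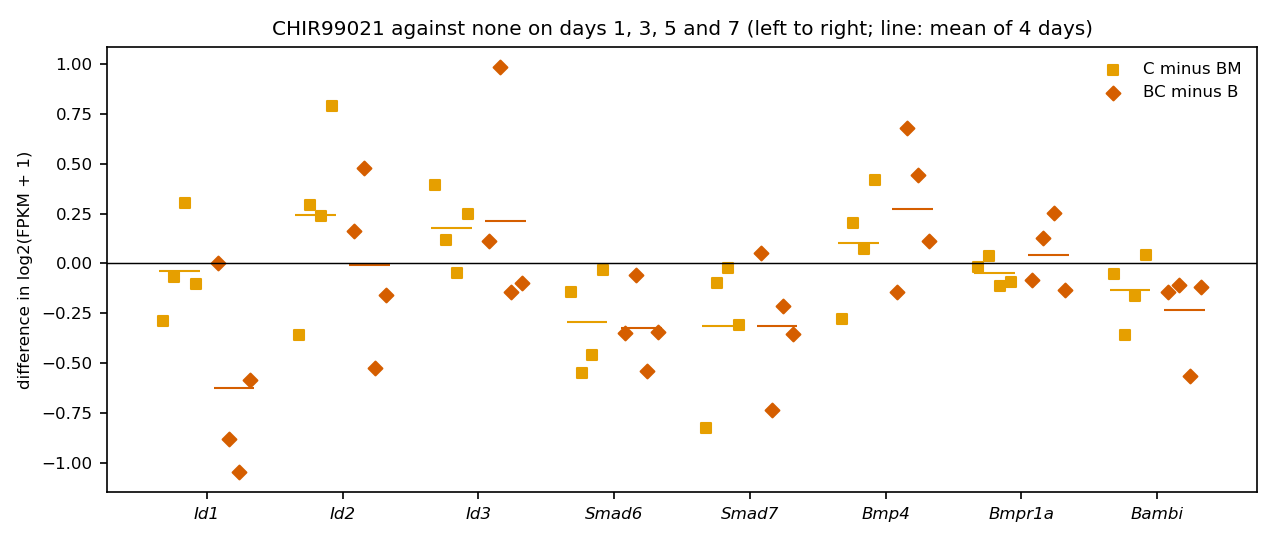
Difference in log2(FPKM + 1) between libraries with and without CHIR99021 on the same day, for the 8 tested genes: C minus BM (squares) and BC minus B (diamonds), with days 1, 3, 5 and 7 from left to right and a line at the mean of the 4 days. The 8 Smad6 differences lie below 0, and the Id1 differences of BC minus B from day 3 lie between -0.59 and -1.05.

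For CHIR99021, over days 1 to 7 none of the 8 tested members was called by edgeR, none had an unadjusted p under 0.05, and DESeq2 called none either. Over all genes edgeR called 0.337% and DESeq2 2.49%. Smad6 was lower in C than in BM and in BC than in B on every day, in 8 of 8 pairs, with an effect of -0.38 (SE 0.20, adjusted p = 0.584). Smad7 was lower in 7 of 8 pairs, the exception being BC day 1, with -0.39 (SE 0.19, adjusted p = 0.543), and Bambi in 7 of 8 pairs with -0.41 (SE 0.32, adjusted p = 0.792). Bmpr1a had the smallest difference, -0.00 (SE 0.13), and Id1 one of -0.36 (SE 0.17, adjusted p = 0.532).

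The size of the spread set these calls. In the model with a separate bFGF effect for each day, the biological coefficient of variation was 10.04% in place of 24.7%, and CHIR99021 was then called for Smad6 (-0.37, SE 0.08, adjusted p = 0.00829) and Smad7 (-0.37, SE 0.09, adjusted p = 0.0179), where 19.5% of all genes were called. The remaining 6 did not pass, with adjusted p of 0.0620 for Bambi and 0.0895 for Id1.

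For Id1 the difference between media with and without CHIR99021 was seen in the presence of bFGF. BC was at 29.1 against 29.1 FPKM in B on day 1, and at 32.9 against 61.3 on day 3, 29.9 against 62.9 on day 5 and 45.9 against 69.4 on day 7. C and BM did not keep 1 order over the days. The bFGF by CHIR99021 term was -0.62 for Id1 (SE 0.32, unadjusted p = 0.0725, adjusted p = 1.00); no member passed, and 0.00887% of all genes did. With the bFGF by day term also in the model, a fit chosen after the data were seen, the term was again -0.62 (SE 0.21, unadjusted p = 0.0136, adjusted p = 0.224), no member passed, and 0.692% of all genes did. In that fit the CHIR99021 effect on Id1 was -0.65 with bFGF (SE 0.15, adjusted p = 0.0140) and -0.03 without it (SE 0.16, adjusted p = 0.939), but since the term itself missed the threshold, these effects were not shown to differ. Smad6 was the other member called with bFGF in that fit (-0.39, SE 0.12, adjusted p = 0.0370), and 16.9% of all genes were called. Single pairs of libraries could differ by more than these means: on day 3 Id3 was at 225 FPKM in BC against 113 FPKM in B.

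The rest of the pathway was read from 6 lists of 89 genes, beside all genes tested, whose median bFGF effect was -0.00. Among ligands, 4 of 15 were expressed enough to test. Gdf15, a stress-induced distant member of the family that signals through another receptor, went from 2.79 to 24.4 FPKM without bFGF to 48.0 to 431 FPKM with it (5.58, SE 0.89, adjusted p = 0.000340). Its highest values without bFGF were those of day 1, 24.4 FPKM in BM and 23.5 in C. Bmp2, which uses the same receptors as Bmp4, was higher by 1.41 (SE 0.29, adjusted p = 0.00125), and its B and BC values were largest on days 1 and 3 (2.41 to 4.76 FPKM). It passed the minimum through the libraries with bFGF (means of 0.773 FPKM without and 2.07 FPKM with bFGF), and on day 7 the effect was 0.62 (SE 0.49, adjusted p = 0.261), with 0.77 and 0.65 FPKM in B and BC against 0.50 and 0.89 FPKM in BM and C. Gdf11 was lower (-1.10, SE 0.27, adjusted p = 0.00382). Bmp6 was not called, with an effect of -0.02 (SE 0.15, adjusted p = 0.926). Its level was 23.7 to 48.3 FPKM without and 18.7 to 43.2 FPKM with bFGF. Bmp4 was at 5.55 FPKM at most in the same libraries, so Bmp6 was the more abundant transcript in either arm.

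Of 19 secreted antagonists and modulators, 11 were tested, and 9 were lower and 2 higher with bFGF, with a median of -0.94 (without TMM 9 lower and 1 higher). That is 81.8% lower in either scaling, beside 33.9% of all genes, or 50.6% without TMM. Nbl1, a DAN-family antagonist that binds BMPs, was at 71.9 to 155 FPKM without and 8.09 to 17.8 FPKM with bFGF on days 3 to 7, and at no more than 4.29 FPKM on day 1 (-2.55, SE 0.32, adjusted p = 9.46e-05). Crim1, a transmembrane BMP-binding protein, was lower by -1.34 (SE 0.21, adjusted p = 0.000290) and Dand5, another DAN-family antagonist, by -1.44 (SE 0.30, adjusted p = 0.00142). Follistatin (Fst), which binds activins and some BMPs, was higher (1.45, SE 0.20, adjusted p = 0.000180). Its day 0 level was 109 FPKM, and on day 1 it was at 51.3 and 35.2 FPKM in B and BC against 9.69 and 7.32 FPKM in BM and C.

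Of 11 receptors and co-receptors, 8 were tested, 4 were lower and 2 higher (without TMM 5 lower and 0 higher), which is 50% lower, or 62.5% without TMM, beside the 33.9% and 50.6% of all genes. The 4 were the type II receptors Bmpr2 (-0.53, SE 0.12, adjusted p = 0.00207) and Acvr2a (-0.73, SE 0.19, adjusted p = 0.00404) and the GPI-anchored co-receptors Rgma (-1.28, SE 0.16, adjusted p = 8.65e-05) and Rgmb (-0.65, SE 0.12, adjusted p = 0.000776). Bmpr2 was at 8.42 to 16.01 FPKM without and 4.51 to 10.3 FPKM with bFGF. Of 15 Smads and their regulators, 13 were tested, with 5 lower, 2 higher and 6 past neither way, and a median of -0.08 (without TMM 8 lower and 0 higher). The shares lower, 38.5% and 61.5% without TMM, were near those of all genes. The co-repressors Ski (-0.42, SE 0.09, adjusted p = 0.00193) and Skil (-0.50, SE 0.13, adjusted p = 0.00574) and the antiproliferative Tob1 (-0.69, SE 0.13, adjusted p = 0.000857) were lower. The ubiquitin ligase Smurf1 was at 0.35 (SE 0.10, adjusted p = 0.00914), and at 0.06 without TMM.

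Of 16 other transcription targets named for the pathway, 7 were tested, and 4 were lower and 2 higher, with a median of -1.06 (without TMM 4 lower and 0 higher). The 57.1% lower in either scaling stood beside 33.9% of all genes, or 50.6% without TMM, so that without TMM the share was near that of all genes. Atoh8, Gata2 and Tbx2 had a mean under 1 FPKM with bFGF and passed the minimum through the libraries without it, so they had to differ to be tested, and the count is no support for the list. Atoh8, a bHLH factor, ran from 0.16 to 7.46 FPKM without and from 0.02 to 0.84 FPKM with bFGF (-3.49, SE 0.83, adjusted p = 0.00285). The zinc finger factor Gata2 went the same way (0.62 to 6.60 against 0.14 to 1.44 FPKM; -2.70, SE 0.42, adjusted p = 0.000291). Tbx2, a T-box repressor of the dorsal eye, was lower by -2.71 (SE 0.70, adjusted p = 0.00438) and the homeobox gene Msx1 by -1.06 (SE 0.24, adjusted p = 0.00201). Outside the rule for named genes, and named after their values were seen, the genes counted above as called included Junb (0.38) and Klf10 (0.35) among these targets, Fstl3 (0.37) among the modulators, Neo1 (0.25) and Tgfbr3 (0.31) among the receptors, and Smad2 (0.31), Smad5 (-0.17) and Tob2 (-0.32) among the Smads and their regulators. None of those above 0 was called as higher without TMM.

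The partners of Id proteins were read last. Of 13 E proteins and bHLH factors, 4 were tested, and 3 were lower and 0 higher over days 1 to 7, beside 33.9% of all genes lower (without TMM 4 lower, beside 50.6%). On day 7 alone 1 was lower (Tcf4, -1.44), 1 was higher (Tcf3, 0.28, adjusted p = 0.0173) and 2 were not called. Tcf4, an E protein that Id proteins bind, was at 50.7 to 154 FPKM without and 43.1 to 88.6 FPKM with bFGF (-1.01, SE 0.17, adjusted p = 0.000416). Its relative Tcf12 was lower by -0.38 (SE 0.11, adjusted p = 0.00892), and Hes1, a repressor of neurogenesis, by -0.89 (SE 0.26, adjusted p = 0.00846), while Tcf3 was at 0.12 (SE 0.06, adjusted p = 0.124). CHIR99021 was called for no gene of the 6 lists in the model without a bFGF by day term, where 0.337% of all genes were called. With that term 19.5% of all genes were called, and the lists were not read in that model.

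The genes with the course most like that of each Id gene, by Pearson's r of log2(FPKM + 1) over the 17 libraries and among genes with a mean of at least 1 FPKM, are given as a description, since libraries of the same medium and neighbouring days share much of their course. For Id1 they were Arhgdib (r = 0.93), Fam69b (0.93) and Nt5dc3 (0.91), and for Id3 Acbd4 (0.98), Rfxank (0.97) and Plscr4 (0.97). For Id2 they included Ftl1 (0.86) and Dap (0.85), and for Id4 Rgs16 (0.88), Ptprn (0.84) and Imp3 (0.82). The 4 sets held no gene in common.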

How the data were processed

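RNA was sequenced on the BGISEQ-500. The authors mapped reads with Bowtie 2 and computed FPKM with eXpress per the methods of the study; the submitters' processing notes name RSEM and the build mm10, and which program made the tables was not settled. The authors deposited per gene an expected count, which need not be whole because shared reads are split, and an FPKM; 63.9% to 66.6% of the counts were whole. Genes missing from a library's table were taken as 0. Groups, days and treatments were taken from the labels.

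For testing, the counts were rounded and fitted by edgeR 4.0.16 (R 4.3.3) with TMM, glmQLFit and glmQLFTest, over 11272 genes with a mean of at least 1 FPKM in the 16 cultured libraries, with Benjamini-Hochberg adjustment over all of them and a threshold of 0.05. The models were day, bFGF and CHIR99021 (10 residual degrees of freedom); the same with a bFGF by day term (7); and with a bFGF by CHIR99021 term (9). TMM factors were 0.75 to 0.82 for B and BC on days 5 and 7 and 1.01 to 1.13 otherwise. Day 0 entered no test. The alternatives were DESeq2 1.42.0, limma 3.58.1 on log2(FPKM + 1), other filters, no TMM and leaving out each library in turn. Scripts were tested on simulated data. Promoter windows are RefSeq's (GRCm38.p6), and 6 of the 10 genes matched. The 10 genes, the lists and the rule for named genes (the 10 genes, up to 4 called genes per list by size of the bFGF effect, and the 3 genes most like each Id gene) were chosen with earlier results of these data known. Some genes that the lists or the rule include are not reported here. The day 0 library is described by the study both as cells in BM and as the values before treatment. P-values measure the spread between these libraries, with no separate cultures stated.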

Additional observations from a re-analysis of the deposited data

Results flagged for a closer look

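The bFGF effect differed between days, by edgeR's test of the bFGF by day terms, in 7 of the 8 tested genes. The adjusted p was 0.000121 for Bmpr1a, 0.000144 for Smad6, 0.000161 for Bambi, 0.00042 for Id3, 0.000984 for Smad7, 0.00421 for Id2 and 0.0457 for Bmp4. Smad6 was called in opposite directions with TMM scaling, -0.60 on day 1 and 0.79 on day 5. In FPKM the day 5 ratios were 1.28 (B to BM) and 1.22 (BC to C), and no single-day fit was run without TMM. For Id2 the value was -0.85 on day 1, not past the threshold, and 2.14 on day 7. Among all genes 76.3% passed the same test.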

How the results depend on the processing

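With a minimum mean of 5 FPKM, which leaves 5 of the 10 genes to test, 4 were called for bFGF, 4 for a bFGF effect that differs between days and 3 from day 1 to day 7 without bFGF. With the bFGF by day term in the model, CHIR99021 was called for 2. Leaving out each library in turn gave 6 to 7 called for bFGF, 0 to 0 for CHIR99021, 6 to 8 for the difference between days, 5 to 6 from day 1 to day 7 without bFGF, 6 to 7 with it, and 0 to 0 for the bFGF by CHIR99021 term; where a day and medium lost its partner, the lone library was taken to vary like the others. No fold change called in the edgeR fits that the alternatives were compared with changed sign in the alternatives run. The change of Id3 from day 1 to day 7 with bFGF was not called in those fits (0.42). It was called in some alternatives, and over all alternatives it ran from -0.03 to 0.55, so its sign was not kept. Id2 lost its bFGF call without TMM (0.72, adjusted p = 0.0874), and in limma on log2(FPKM + 1) (0.47, adjusted p = 0.0656) and on log2(FPKM + 0.1) (0.69, adjusted p = 0.0761). The call was also lost for the effect without CHIR99021 in the model with a bFGF by CHIR99021 term (1.17, adjusted p = 0.108). For the effect with CHIR99021 in that model, an alternative added after the data were seen, Id2 (0.88, adjusted p = 0.203) and Id3 (-0.83, adjusted p = 0.0648) lost their calls. The change of Id2 from day 1 to day 7 without bFGF was past the threshold in DESeq2 (-1.09, adjusted p = 0.0353), the 3 limma fits, the fit with no filter and that of the libraries without bFGF alone, and that of Id3 with bFGF in DESeq2 (0.46, adjusted p = 0.0375). Over all genes, CHIR99021 was called for 38 by edgeR, 281 by DESeq2 and 2199 with the bFGF by day term. The causes were not tested. No paired analysis was possible because each treatment and day had 1 library and the groups share no replicate that the labels number; the day, which libraries of the 4 media share, was a term in every model. Depth limits Id4, Bmp7, Id2 and, with bFGF, Bmp4.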
